A study of Rattus norvegicus with 6 samples.

Results

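Genes that make, export, sense and degrade prostaglandins were read in cultured neonatal rat ventricular cardiomyocytes given perhexiline or vehicle. The listed names were 10 (Ptgs1, Ptgs2, Ptges, Ptges2, Ptges3, Ptgis, Ptger2, Ptger4, Pla2g4a and Hpgd), and a gene counted as found where its name in the table matched. Of these, 9 had a row among the 34257 genes of the table, 1 row each, and Ptgis had none under that name. The cells were primary heart muscle cells isolated from newborn rats, and no allele or transgene was named. The perhexiline group had 3 libraries from cells given 1 µM for 24 h, and the vehicle group had 3 libraries, whose vehicle is not described further. Perhexiline is an antianginal drug known as an inhibitor of carnitine palmitoyltransferase. Whether replicates were separate cultures or animals is not stated, so the p-values reflect the spread among these libraries, possibly a technical one.

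As background, prostaglandins are short-lived lipid signals made from arachidonic acid. Phospholipase A2 enzymes free the acid from membranes, the cyclooxygenases encoded by Ptgs1 and Ptgs2 turn it into an unstable endoperoxide, and terminal synthases turn that into prostaglandin E2, prostacyclin and other prostanoids, which act on G protein-coupled receptors. Ptgs1 is known as the constitutive cyclooxygenase and Ptgs2 as the form induced by cytokines and stress, in the heart as elsewhere, and Ptgs2 mRNA is also widely used as a marker of ferroptosis.

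Values are the authors' deposited FPKM (fragments scaled to gene length and to library depth) in each library, so levels of different genes can be set beside each other. Fragments recovered from these values numbered 13616252 to 16702523 per library. Cardiomyocyte markers were abundant, with their 10 genes summing to 19429 to 24664 FPKM with vehicle and 17396 to 20369 with perhexiline, and 4 of them fell and none rose. Other cells were present in both groups. The 10 fibroblast markers summed to 1049 to 1088 FPKM with vehicle and 1007 to 1053 with perhexiline (2 rose and 2 fell), 8 smooth muscle and pericyte markers to 786 to 1118 and 606 to 799, and 6 mesothelial markers to 28.5 to 30.3 and 24.9 to 34.4. The 10 macrophage markers summed to 85.8 to 92.7 FPKM with vehicle and 46.4 to 72.5 with perhexiline, and 2 of 8 tested fell. Beside these marker calls, 3.55% of all tested genes were called higher and 3.11% lower. Of 9 endothelial markers found, summing to 17.3 to 20.3 and 19.1 to 19.9 FPKM, 5 stayed under 1 FPKM in all libraries and Cldn5 was listed at 0. In bulk RNA, fewer cells of a type and less RNA per cell cannot be told apart, and the part of cell makeup in the results was not tested.

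The 300 bases around the start of both cyclooxygenase genes are shown because these genes behaved differently in the libraries. They come from RefSeq (build GRCr8), run from 250 bases before to 50 after the start, and read 5′ to 3′, with bases matching a searched motif in capitals.

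Ptgs2, chr13:64713813-64714112, plus strand: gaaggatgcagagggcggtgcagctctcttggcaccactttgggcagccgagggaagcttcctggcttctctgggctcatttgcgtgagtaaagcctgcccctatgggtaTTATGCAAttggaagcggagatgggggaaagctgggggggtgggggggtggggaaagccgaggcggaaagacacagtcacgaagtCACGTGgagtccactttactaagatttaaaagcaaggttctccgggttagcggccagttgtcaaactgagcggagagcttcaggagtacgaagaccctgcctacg

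Ptgs1, chr3:39981169-39981468, plus strand: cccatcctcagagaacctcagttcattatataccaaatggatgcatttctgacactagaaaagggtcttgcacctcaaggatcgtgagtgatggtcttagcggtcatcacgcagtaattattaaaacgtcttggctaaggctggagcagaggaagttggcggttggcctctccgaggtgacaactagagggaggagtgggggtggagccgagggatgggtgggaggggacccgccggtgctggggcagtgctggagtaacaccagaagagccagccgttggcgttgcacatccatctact

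The motifs, searched on both strands, were the TATA box (TATAAA), the cyclic AMP response element (TGACGTCA) and its core (CGTCA, also held by the full element), an E-box (CACGTG), AP-1 (TGANTCA), C/EBP (TTNNGNAA) and NF-kB by its usual consensus. The Ptgs2 window held 1 C/EBP match beginning 140 bases before the start and 1 E-box match beginning 55 bases before it. The Ptgs1 window held none of the motifs. Of 33469 promoters of this length, 41.3% held the C/EBP letters and 6.42% the E-box. The other motifs were held by 14.2% (TATA box), 1.83% (full cyclic AMP element), 21.2% (its core), 7.33% (AP-1) and 7.51% (NF-kB). RefSeq promoters matched 8 of 10 listed names. Among these 8, the C/EBP letters also occurred at Ptges and Pla2g4a, and the E-box also at Hpgd. The TATA box occurred at Pla2g4a, the core of the cyclic AMP element at Ptges3 and Hpgd, and NF-kB at Ptges3. The full cyclic AMP element and AP-1 occurred at none of the 8, and Ptger2 and Ptger4, like Ptgs1, held none of the motifs. These matches describe the letters only, and no binding was measured.

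Perhexiline was accompanied by a rise of Ptgs2, the inducible cyclooxygenase, to 3.29 times its vehicle mean, while none of the other 7 tested members passed the test. Ptgs2 lies on chromosome 13 from 67351087 to 67359335, on the plus strand, in the coordinates of the deposited table (genome build not given in the sources used). It stood at 2.39, 1.51 and 1.98 FPKM in vehicle replicates 1, 2 and 3 (144, 101 and 121 fragments). With perhexiline it stood at 4.95, 8.68 and 5.71 FPKM (375, 596 and 435 fragments). Every perhexiline library was above every vehicle library, and perhexiline replicate 2 was the highest. The group means were 1.96 ± 0.442 and 6.45 ± 1.97 FPKM (SD, n = 3 each). On the log2(FPKM + 1) scale, where changes of low genes come out too small, the difference was 1.31 ± 0.196 (SE, 95% interval 0.85 to 1.77), with a limma adjusted p of 0.0189 over 13460 genes. It was 1.69 with limma-voom on the recovered fragments (adjusted p = 0.00235). Among 13 alternatives, the call was lost without vehicle replicate 2 (limma adjusted p = 0.0631), without perhexiline replicate 3 (0.062) and with no filter on low values (0.06). It was also lost with the replicate number as a block (0.0591), although replicate numbers are not stated to pair the samples. The difference stayed between 1.10 and 1.69 over the 13 alternatives.

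**Figure D1:**
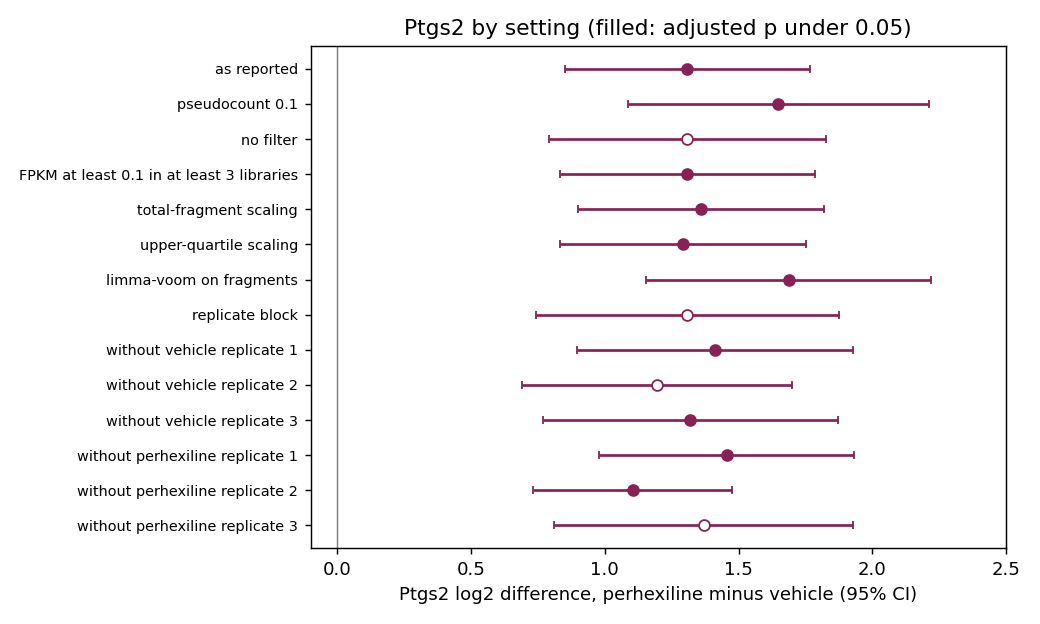
Log2 difference of Ptgs2, perhexiline minus vehicle, with its 95% interval (x axis) as reported and under 13 alternative settings (y axis). Filled points have an adjusted p under 0.05, and all 14 intervals lie above 0, with differences from 1.10 to 1.69.

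The count of 1 called member among 8 tested is read against all genes, of which 6.66% were called (3.55% higher and 3.11% lower). Ptger2 was under the filter of at least 1 FPKM in at least 3 libraries and so was not tested. The median log2 difference of the 8 tested members was 0.06, beside 0.01 for all 13460 genes. Ptgs2 was also the only tested member whose groups did not overlap, against 31.9% of all tested genes.

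**Figure D2:**
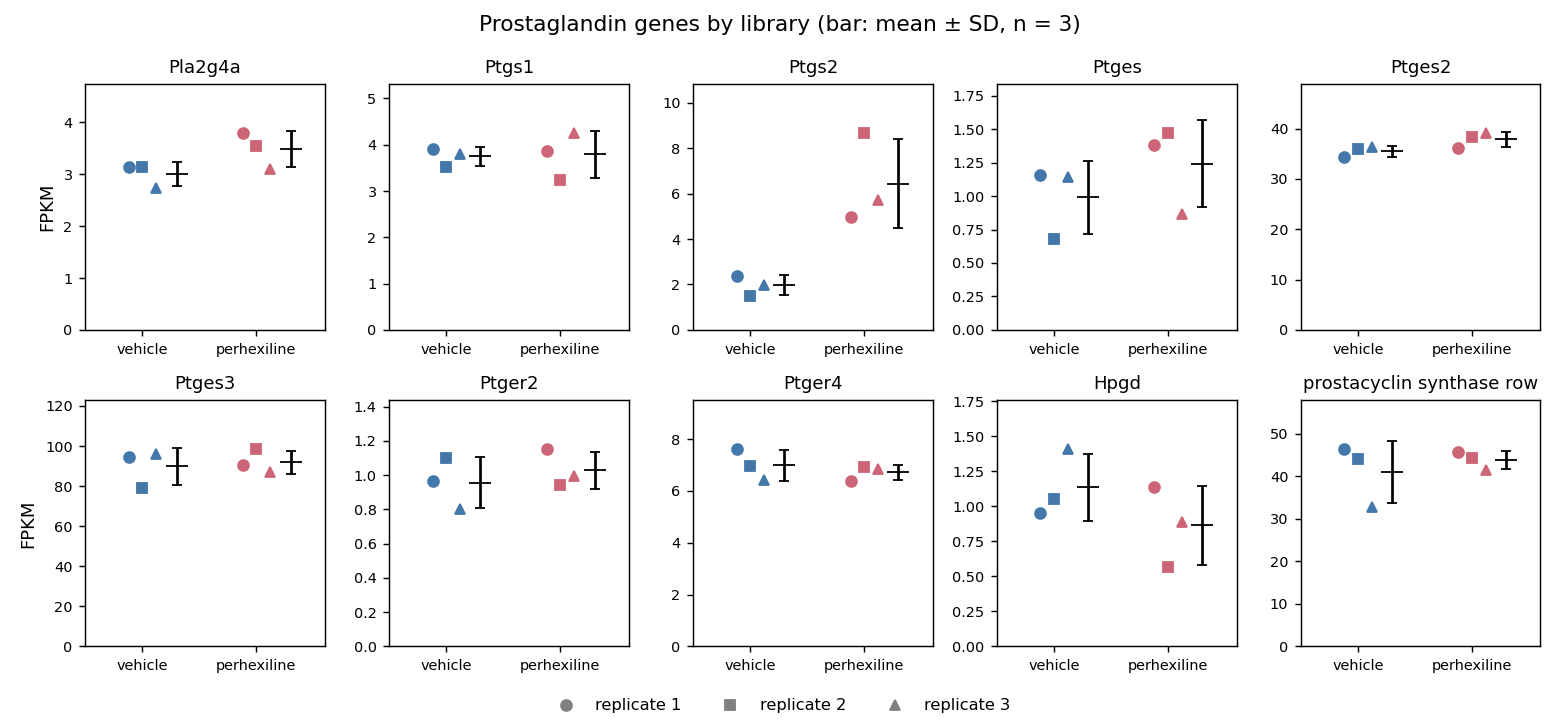
FPKM (y axes, linear from 0) of the 9 members found and of the row annotated as prostacyclin synthase, by group. Symbols are the 3 libraries of a group and the bar is mean ± SD. Ptgs2 is the only panel with separated groups, at 1.51 to 2.39 and 4.95 to 8.68 FPKM.

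The constitutive cyclooxygenase gene Ptgs1 (chromosome 3, 15560712 to 15582344) did not pass. It stood at 3.92, 3.52 and 3.80 FPKM with vehicle and at 3.87, 3.25 and 4.26 with perhexiline. The groups overlapped, with means of 3.75 ± 0.202 and 3.79 ± 0.509, and the log2 difference was 0.01 (95% interval -0.24 to 0.25, limma adjusted p = 0.966), changing sign with upper-quartile scaling. Ptgs2 was below Ptgs1 in all 3 vehicle libraries and above it in all 3 perhexiline libraries. Ptgs2 made up 37.9%, 30.01% and 34.2% of the summed FPKM of both genes with vehicle. With perhexiline it made up 56.1%, 72.8% and 57.3%. The means were 34.1 ± 3.97% and 62.05 ± 9.30% (n = 3 each), a difference of 28.0 percentage points. The exact two-sided permutation test gave p = 0.1, which is the smallest p that 3 against 3 libraries allow. Of 3 such shares tested, the Benjamini-Hochberg adjusted p was 0.3 for this share.

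**Figure D3:**
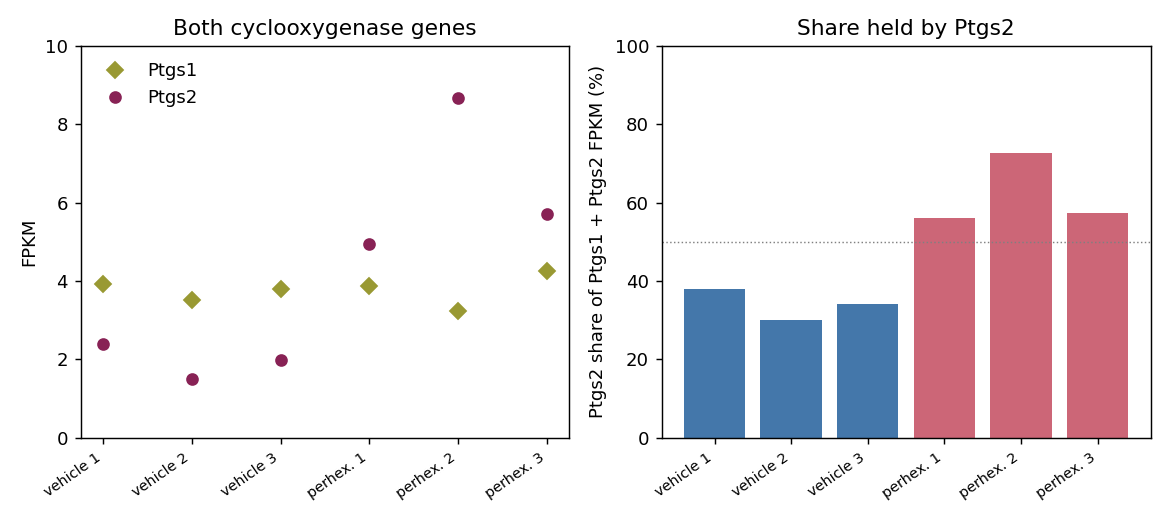
Left, FPKM of Ptgs1 and Ptgs2 in each of the 6 libraries. Right, the percentage of their summed FPKM held by Ptgs2, which lies between 30.01% and 37.9% with vehicle and between 56.1% and 72.8% with perhexiline, with a dotted line at 50%.

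Pla2g4a encodes the calcium-dependent cytosolic phospholipase A2, which frees arachidonic acid for the cyclooxygenases. It is the nearest named gene on that side of Ptgs2 in the table (chromosome 13, 66988937 to 67206693, minus strand), 144394 bases away with 1 unnamed entry between. It stood at 3.14, 3.14 and 2.73 FPKM with vehicle and 3.80, 3.54 and 3.11 with perhexiline. The groups overlapped, and the log2 difference of 0.16 (95% interval -0.07 to 0.40) did not pass (limma adjusted p = 0.355). Every vehicle library had more Pla2g4a than Ptgs2, and every perhexiline library had less.

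The 3 prostaglandin E synthases did not pass either, among them Ptges, the inducible microsomal enzyme known to couple with the Ptgs2 product. Ptges (chromosome 3, 9727408 to 9738752) rested on 13 to 30 fragments per library. It stood at 1.16, 0.678 and 1.14 FPKM with vehicle and at 1.38, 1.47 and 0.869 with perhexiline. The groups overlapped, and perhexiline replicate 3 was below vehicle replicates 1 and 3. Its log2 difference of 0.17 had a 95% interval of -0.23 to 0.56 (limma adjusted p = 0.573). A rise of that size could not be told apart from no change in these libraries. Ptges2, a second membrane-associated synthase, stood at 34.3, 35.98 and 36.3 FPKM with vehicle and 36.1, 38.3 and 39.1 with perhexiline (log2 difference 0.09, 95% interval -0.03 to 0.21, adjusted p = 0.324). Ptges3, the cytosolic synthase better known as the HSP90 cochaperone p23, was the most abundant member in both groups. It stood at 94.8, 79.3 and 95.9 FPKM with vehicle and at 90.6, 98.3 and 86.9 with perhexiline (log2 difference 0.03, interval -0.16 to 0.23, adjusted p = 0.831). Ptges held 0.777 ± 0.167% of the summed FPKM of the 3 synthases with vehicle and 0.943 ± 0.224% with perhexiline (exact permutation p = 0.3, n = 3 each; Benjamini-Hochberg adjusted p = 0.4).

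Prostacyclin synthase, the enzyme of the vasodilator prostanoid, had no row named Ptgis. A row with a placeholder name on chromosome 3 (163950777 to 163986059, minus strand) is annotated in the deposited table with the rat prostacyclin synthase protein. It was identified after the values were seen and is not counted among the 9 members. It stood at 46.3, 44.1 and 32.7 FPKM with vehicle and at 45.8, 44.2 and 41.6 with perhexiline. The groups overlapped (log2 difference 0.11, 95% interval -0.18 to 0.39, limma adjusted p = 0.618). A second placeholder row with the same protein annotation, on chromosome 11, rested on 1 to 3 fragments per library.

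Of the 4 receptor genes of prostaglandin E2, Ptger4 and Ptger1 were tested and neither passed, while Ptger2 and Ptger3 were too low to test. Ptger4 encodes EP4, which raises cyclic AMP (chromosome 2, 54952821 to 54963448). It stood at 7.60, 6.97 and 6.41 FPKM with vehicle and 6.39, 6.91 and 6.85 with perhexiline. The groups overlapped, with a log2 difference of -0.05 (95% interval -0.24 to 0.14, limma adjusted p = 0.746) that turned to 0.00 under total-fragment scaling. Ptger2, encoding the other cyclic AMP-coupled receptor EP2, was low, at 0.965, 1.10 and 0.803 FPKM with vehicle and 1.15, 0.942 and 0.996 with perhexiline (22 to 39 fragments). Among receptors of this prostaglandin outside the members, named here after their values were seen, Ptger1 was the most abundant. It encodes the calcium-coupled receptor EP1 and stood at 26.6 ± 3.35 and 26.6 ± 0.728 FPKM (adjusted p = 0.974). Ptger3, encoding EP3, stood at 0.875 ± 0.121 and 1.05 ± 0.241 FPKM and was not tested. Ptger4 held 19.8 ± 1.18% of the FPKM of the 4 receptor genes with vehicle and 19.0 ± 0.538% with perhexiline (exact permutation p = 0.4, n = 3 each; Benjamini-Hochberg adjusted p = 0.4).

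Hpgd encodes the dehydrogenase that starts the inactivation of prostaglandins (chromosome 16, 37457135 to 37495758). It stood at 0.953, 1.05 and 1.41 FPKM with vehicle and at 1.14, 0.569 and 0.889 with perhexiline, from 15 to 33 fragments. The groups overlapped, and the log2 difference of -0.20 had a 95% interval of -0.58 to 0.18 (limma adjusted p = 0.471).

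The order of the members differed between the groups mainly in the place of Ptgs2. With vehicle the order of mean FPKM was Ptges3, Ptges2, Ptger4, Ptgs1, Pla2g4a, Ptgs2, Hpgd, Ptges and Ptger2. The last 3 of these, from 0.957 to 1.14 FPKM, overlapped with their neighbours in the order. With perhexiline Ptgs2 came next after Ptger4, its range of 4.95 to 8.68 FPKM overlapping that of the latter (6.39 to 6.91) and lying above that of Ptgs1 (3.25 to 4.26). Ptgs1 and Pla2g4a then overlapped, as did Ptges, Ptger2 and Hpgd.

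A further list held enzymes that free arachidonic acid, proteins that regulate or bind them, and Lpcat3, which returns the acid to membranes. Of 19 listed genes 15 were tested, and 2 rose (Pla2g2a and Lpcat3) and 2 fell (Pla2g5 and Mgll), beside 3.55% higher and 3.11% lower among all tested genes. The median log2 difference was 0.04. Pla2g2a, a secreted phospholipase A2 of the acute phase, stood at 35.02, 45.5 and 17.6 FPKM with vehicle. With perhexiline it stood at 79.3, 110.4 and 107 FPKM. All perhexiline libraries were above all vehicle libraries, a 3.03-fold ratio of means (32.7 ± 14.1 and 98.98 ± 17.1) and limma gave a difference of 1.65 ± 0.311 on the log2(FPKM + 1) scale (SE, adjusted p = 0.0293). Pla2g5, another secreted phospholipase, moved the other way, from 39.02, 39.5 and 31.4 FPKM to 28.04, 22.3 and 25.2 (0.687 times, adjusted p = 0.0379). Mgll, the lipase that turns an endocannabinoid into arachidonic acid, stood at 17.4, 18.2 and 18.9 FPKM and then 15.4, 12.1 and 11.96 (0.723 times, adjusted p = 0.0408). Lpcat3, an acyltransferase acting on phospholipids, stood at 58.1, 53.4 and 53.7 FPKM and then 63.1, 64.96 and 65.6 (1.17 times, adjusted p = 0.0422). The table lists Emg1 over part of Lpcat3 on the other strand, at up to 13.2 FPKM, so their reads may be mixed.

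Of 13 tested genes among 19 other prostanoid synthases, receptors, transporters and reductases, 2 fell and none rose, beside 3.11% lower and 3.55% higher among all tested genes, with a median log2 difference of -0.08. With total-fragment scaling 1 rose and 1 fell, with upper-quartile scaling 0 rose and 3 fell, and with limma-voom 1 rose and 3 fell. Tbxa2r, the thromboxane receptor, stood at 2.69, 3.28 and 3.21 FPKM with vehicle and 1.83, 1.65 and 1.39 with perhexiline, without overlap (0.531 times, limma adjusted p = 0.0285). Abcc4, a transporter that can export prostaglandin E2, stood at 23.8, 24.04 and 24.98 FPKM and then 20.3, 19.6 and 20.7 (0.832 times, adjusted p = 0.0343). Named after their values were seen, Ptgfr, the receptor of prostaglandin F2 alpha and the most abundant prostanoid receptor, stood at 72.2 ± 5.08 and 63.2 ± 2.68 FPKM (adjusted p = 0.119). Akr1b1, an aldo-keto reductase able to make that prostaglandin, stood at 158 ± 5.32 and 185 ± 11.8 FPKM (adjusted p = 0.0613).

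**Figure D4:**
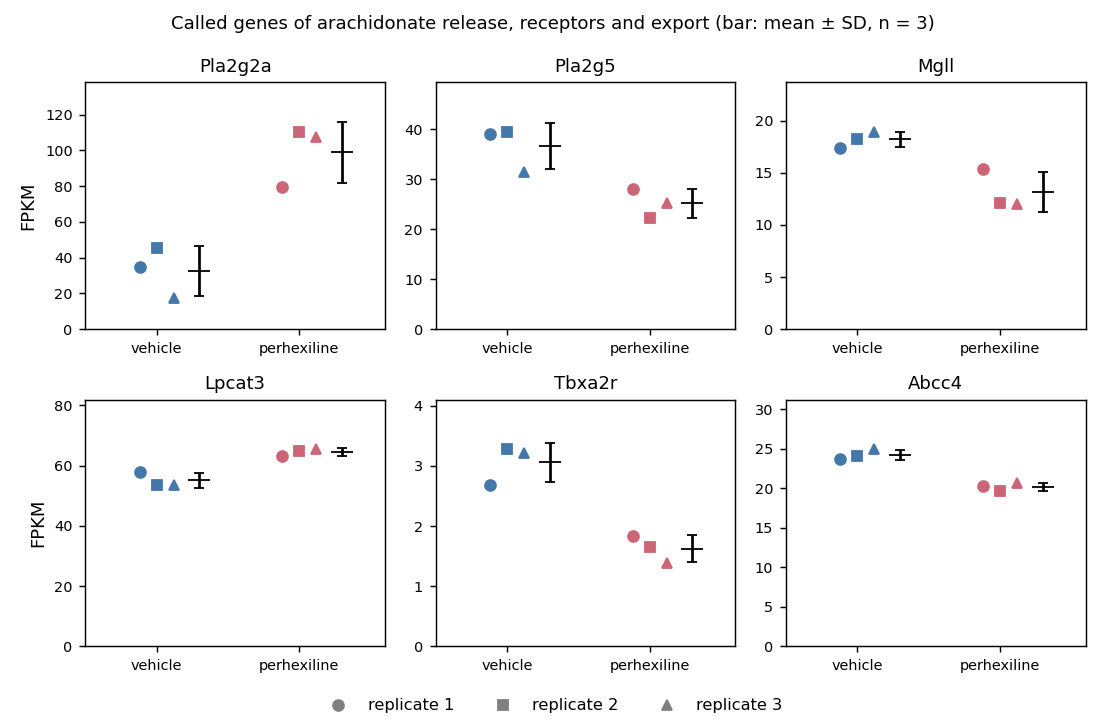
FPKM (y axes, linear from 0) of the 4 called genes of arachidonate release and the 2 called genes of prostanoid sensing and export. Symbols are libraries and the bar is mean ± SD, n = 3. The groups overlap in no panel, and Pla2g2a ran from 17.6 to 45.5 with vehicle and from 79.3 to 110.4 with perhexiline.

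The calls of these 6 genes, like those over all genes, depended on single libraries. When vehicle replicate 1, perhexiline replicate 2 or perhexiline replicate 3 was left out, none of the 6 passed. Pla2g2a then reached a limma adjusted p of 0.0803, 0.104 and 0.0994. Over all genes, the 896 calls became 117, 125 and 87 in these fits, in that order. Only Pla2g2a passed without vehicle replicate 2, and only Pla2g2a and Pla2g5 without vehicle replicate 3. Abcc4 and Lpcat3 failed whichever of the 6 libraries was left out. The calls also depended on the settings. Abcc4 and Mgll lost the call under total-fragment scaling, and Lpcat3 under upper-quartile scaling (limma adjusted p = 0.0645). Pla2g5, Mgll and Lpcat3 lost it with a filter of at least 0.1 FPKM in at least 3 libraries. None of the 6 passed with no filter or with the replicate number as a block.

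Known regulators of Ptgs2 transcription and mRNA decay formed a further list, chosen with earlier results of these data known, so its count is not independent evidence. Of 27 listed, 26 were found and 23 tested, and 10 rose and none fell, beside 3.55% higher among all genes, with a median log2 difference of 0.26. The 10 included the cytokine and pattern receptors Il1r1, Tnfrsf1a and Tlr2, the adaptor Myd88, and the NF-kB subunits Nfkb1 and Rela. The others were the transcription factors Cebpb, Cebpd and Jun, and Zfp36l1, which promotes mRNA decay. Cebpb, a factor known to drive Ptgs2, went from 57.95, 64.8 and 59.5 FPKM to 98.04, 126 and 104.8 (1.81-fold, limma adjusted p = 0.00928) and passed in all 6 fits without 1 library. Jun, a subunit of AP-1, went from 37.6 ± 1.12 to 49.5 ± 3.30 FPKM (adjusted p = 0.0203). The interleukin-1 receptor Il1r1 went from 44.5 ± 0.739 to 57.7 ± 4.91 FPKM (adjusted p = 0.028). The tumour necrosis factor receptor Tnfrsf1a went from 105 ± 0.963 to 127 ± 5.35 FPKM (adjusted p = 0.0235). The cytokines that act on these receptors stayed under 1 FPKM in every library, with Il1a at 0.05 to 0.514, Il1b at 0.0828 to 0.364 and Tnf at 0 to 0.0342. Of the mRNA-binding proteins that set Ptgs2 mRNA decay, Elavl1, a stabilizer, stood at 20.5 ± 0.924 and 20.9 ± 0.80 FPKM, and Zfp36, a destabilizer, at 24.5 ± 6.07 and 29.1 ± 4.04. Neither passed. The count of 10 became 1 when vehicle replicate 1, or vehicle replicate 2, or replicate 2 of perhexiline was left out. It became 2 when perhexiline replicate 3 was left out. In the same order of fits, the 896 calls over all genes became 117, 142, 125 and 87. Without vehicle replicate 3, 8 regulators were called higher and 1 lower.

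**Figure D5:**
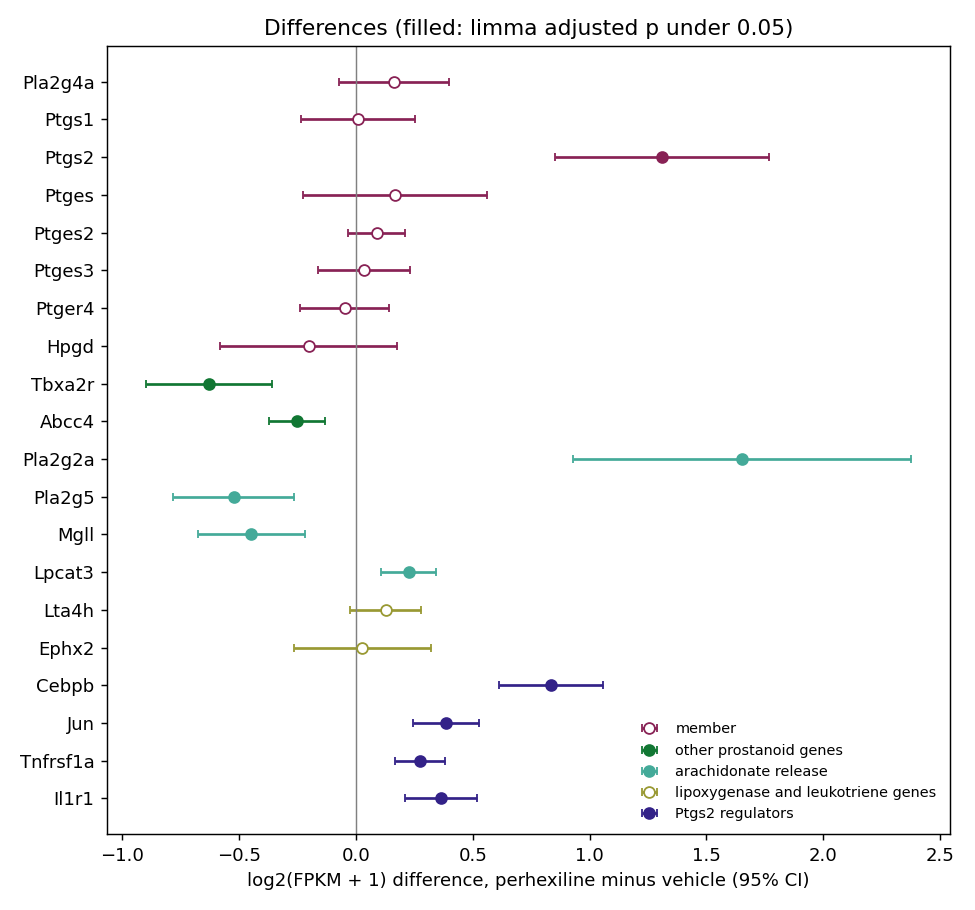
Log2(FPKM + 1) difference, perhexiline minus vehicle, with its 95% interval (x axis) for the 8 tested members and the genes named from each list (y axis). Filled points passed an adjusted p of 0.05. Ptgs2 at 1.31 is the only filled member, and Pla2g2a at 1.65 has the largest difference shown on this scale. The ratio of group means was 3.29 for Ptgs2 and 3.03 for Pla2g2a.

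Across the 6 libraries, the genes whose log2(FPKM + 1) followed that of Ptgs2 most closely were Imp3, Ebp and B4galt1. Their Pearson correlations were 0.999, 0.998 and 0.996, described over 6 libraries that form 2 groups, so the group difference is part of each. Ebp, an enzyme of cholesterol synthesis, stood at 12.3, 11.3 and 11.9 FPKM with vehicle and 14.6, 16.6 and 15.3 with perhexiline. For Ptges, which rested on 13 to 30 fragments per library, the closest were Mrpl50, Twsg1 and Gatd1, at 0.995, 0.993 and 0.991. None of these 3 passed the test. Both sets of 3 were the highest among all tested genes with a name, a choice that by itself favours high correlations over 6 libraries.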

How the data were processed

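Poly(A) RNA of 6 libraries was sequenced in pairs after dUTP second-strand marking, per the labels' protocols. The authors deposited FPKM per gene and library, per the file headers. The submitters' processing notes name HISAT2 2.0.5 and also DESeq2, without roles. Not given in the sources used here are the genome build, the annotation and the program that counted reads. Whether the counting used the strand is therefore unknown, and reads of overlapping or antisense genes may be mixed.

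Multiplying FPKM by gene length gave whole reads in units of a library-specific step for 100% of positive values (tolerance 0.01). These were taken as fragments, 13616252 to 16702523 per library. Replicates held 0 identical values and differed beyond sampling noise. The 13460 genes at 1 FPKM or more in at least 3 libraries entered a linear model of log2(FPKM + 1) on group. It used limma 3.58.1 and R 4.3.3 (trended empirical Bayes, two-sided, Benjamini-Hochberg, threshold 0.05). All adjusted p-values are from this fit unless limma-voom or another test is named. The procedure was also run on simulated data, with changes placed only in genes of many fragments, so it does not cover low genes. Shares were compared by exact permutation.

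The members, lists and tests were chosen with earlier results of these data known. Named genes were the members and up to 4 called genes per list, taken by adjusted p (for a list with none, its 2 most abundant). The 3 genes most correlated with Ptgs2 and with Ptges were also named. Further listed genes, among them Elavl1, Zfp36, Il1a, Il1b, Tnf and Alox5, are named outside this rule, with their values known. Lists were matched by name, and Ptgdr and Ptgr3 by older RefSeq symbols. A planned protein comparison was not made, and proteins are not analysed here. Alternatives covered the pseudocount, filter, scaling, limma-voom, replicate number and each library left out.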

Additional observations from a re-analysis of the deposited data

How the results depend on the processing

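Over the 13 alternatives, every difference of Ptgs2 stayed above 0, and the Ptgs2 share kept its direction in all 6 fits without 1 library, from 22.6 to 31.0 percentage points. Ptgs2 lost its call (and the members called became 0) with no filter on low values (1.31, adjusted p = 0.06) and in the fits named in the report and with the replicate block below, and its difference without 1 library ranged from 1.10 to 1.46 and the members called from 0 to 1. The 896 genes called became 162 with no filter, 569 with at least 0.1 FPKM in at least 3 libraries and 1570 with limma-voom, and 87 to 841 without 1 library (117 and 142 without vehicle replicates 1 and 2, 125 and 87 without perhexiline replicates 2 and 3). Called genes of the other prostanoid list (2) became 0 with no filter, 4 with limma-voom and 0 to 2 without 1 library. Those of arachidonate release (4) became 0 with no filter, 1 with at least 0.1 FPKM and 0 to 3 without 1 library. Those of Ptgs2 regulators (10) became 1 with no filter and 1 to 9 without 1 library. The higher share of calls was 53.3%, 71.0% with total-fragment scaling and 41.8% with upper-quartile scaling. Fits without 1 library had fewer samples, and fits with a looser filter had more tests. The part of this in the lost calls was not tested. Without vehicle replicate 3 the genes called were 841, and without perhexiline replicate 1 they were 840.

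Differences near 0 changed sign. That of Ptgs1 was -0.0157 with upper-quartile scaling and ranged from -0.0601 to 0.0936 without 1 library. That of Ptger4 was 0.00116 with total-fragment scaling and ranged from -0.10 to 0.00599 without 1 library. Ptges3 ranged from -0.0535 to 0.0821, Ephx2 from -0.0637 to 0.14 and the prostacyclin synthase row from -0.0426 to 0.20. None of these passed in any fit.

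Replicate numbers are not stated to pair the samples. Same-numbered libraries had correlations of their deviations of -0.02, -0.10 and -0.04, and none of the 6 libraries correlated best with its own number. With 3 libraries per group, these values gave no sign of pairing but cannot exclude it. With the replicate number as a block, 173 genes were called, Ptgs2 had a difference of 1.31 (adjusted p = 0.0591), the members called were 0, and the lists had 0 (other prostanoid), 0 (arachidonate release) and 1 (Ptgs2 regulators).

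The depth behind Ptges, Hpgd and Ptger2 was 13 to 39 fragments per library, which limits their precision.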

Other observations

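Genes of the lipoxygenase branch, which turns arachidonic acid into leukotrienes and related lipids, were mostly low in these cells. Of 14 listed genes 3 were tested, and limma called 0 of them at an adjusted p of 0.05, and 0 had an unadjusted p under 0.05. limma-voom also called 0. Lta4h, the leukotriene A4 hydrolase, stood at 26.5, 25.3 and 27.8 FPKM with vehicle and 28.1, 31.3 and 27.9 with perhexiline. Ephx2, the soluble epoxide hydrolase, stood at 2.88 ± 0.238 and 2.97 ± 0.546 FPKM. Alox5, the arachidonate lipoxygenase that starts leukotriene synthesis, stood at 1.504 ± 0.322 and 1.62 ± 0.248 FPKM.

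The following prostanoid genes are named after their values were seen. Hpgds, the haematopoietic prostaglandin D synthase, stood at 0.744, 0.613 and 1.04 FPKM with vehicle and 0.246, 0.271 and 0.391 with perhexiline, from 5 to 17 fragments, and was not tested. Tbxas1, the thromboxane synthase, stood at 1.40 ± 0.187 and 0.995 ± 0.144 FPKM (limma adjusted p = 0.233). The macrophage marker sum was lower with perhexiline in the same libraries, as given in the report, and its part in these values was not tested. Of 6 mast cell markers (7.78 to 9.21 FPKM summed with vehicle, 7.52 to 9.07 with perhexiline) 4 stayed under 1 FPKM in all libraries, and of 5 platelet markers 4 did, leaving Pf4, which macrophages also express. Pf4 stood at 85.03, 108 and 109 FPKM with vehicle and 95.02, 56.05 and 60.4 with perhexiline (0.701 times, limma adjusted p = 0.137), and the groups overlapped. The 5 platelet markers summed to 86.0 to 109.6 FPKM with vehicle and 56.7 to 95.8 with perhexiline. Ptgir, the prostacyclin receptor, stood at 0.464, 0.38 and 0.291 FPKM with vehicle and 0.722, 0.703 and 0.8996 with perhexiline, from 14 to 54 fragments, below the filter for testing.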
